A study of Mus musculus with 12 samples.

Results

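The 10 genes described here encode transcription factors and cofactors that set or guard B cell identity: Pax5, Ebf1, Spib, Irf8, Pou2af1, Bach2, Zbtb32, Foxp1, Foxo1 and Ikzf3. They were chosen by name, with earlier results of these data known, and all 10 were found by Entrez ID among the 9842 genes measured. The cells were B cells of female C57BL/6J mice, wild type or knockout for LSD1, the histone demethylase encoded by Kdm1a; the labels name neither the knockout allele nor a Cre driver. Transitional B cells (TrB), recent arrivals from the bone marrow, were sorted from the spleen without stimulation as CD93+ B220+ cells that were Thy1.1-, F4/80- and CD11b-. The second cell type, marginal zone B cells made ex vivo (eMZB), grew from transitional cells in a culture of 3 days that contained BAFF, which keeps B cells alive, and DL1, which engages Notch receptors. They were sorted for CD1d+ CD21+ B220+ cells with the same 3 exclusions. All eMZB libraries came from culture and no TrB library did, so cell type, culture and sort cannot be told apart here. RNA of 2000 cells per library was sequenced in 3 libraries of each of 4 groups: TrB_WT, TrB_KO, eMZB_WT and eMZB_KO. Whether the 3 libraries of a group came from separate animals is not stated in the labels, so every p-value measures the spread between libraries, which may be technical.

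Pax5 and Ebf1 commit lymphoid progenitors to the B lineage and keep B cell genes on, with Pax5 also holding genes of other lineages off. Spib, an Ets factor, and Irf8, an interferon regulatory factor, can bind composite sites together, while Pou2af1 is a coactivator that joins octamer factors on DNA. Bach2 and Zbtb32 are repressors, of which Bach2 restrains plasma cell formation. Foxp1 and Foxo1 are forkhead factors of the resting B cell, and Ikzf3 (Aiolos) is a zinc finger factor of the Ikaros family.

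Levels are given in scaled FPKM, that is reads per kilobase of gene and per M reads (M, mega), divided by 1 median-of-ratios factor per library; group values are means ± SD with n = 3 libraries. Changes are log2 differences of scaled FPKM plus 1 with the standard error (SE) of a limma fit, and a gene was called at a Benjamini-Hochberg adjusted p under 0.05 over all 9842 genes. Folds are ratios of the group means of scaled FPKM, without the added 1. The SE and adjusted p beside a fold belong to the log2 change. At low levels a fold is larger than the log2 change beside it implies. Read totals were 7.24 to 19.35 M per library. The third TrB_KO library stood apart, with 61.6% of its reads in the listed genes against 16.7 to 41.7% elsewhere and 285 listed genes at 0 against 19 to 65. It gave the highest of the 3 TrB_KO values for 9 of the 10 genes, Pou2af1 being the exception. In TrB, Kdm1a was at 8.54, 7.93 and 3.47 scaled FPKM in the wild-type libraries and at 3.35, 2.56 and 2.99 in the knockout ones. In eMZB it was at 7.53, 8.63 and 4.68 against 2.65, 2.53 and 2.66. The libraries labelled TrB_WT replicate 3 and eMZB_WT replicate 3 thus lay closer to the knockout libraries than to the other wild-type ones, and all wild-type means below include them. The labels do not say which part of Kdm1a was deleted, and its fall was not called in either cell type (adjusted p = 0.249 and 0.148). The 6 B cell markers examined summed to 2084 to 2423 scaled FPKM in TrB_WT and 1262 to 1385 in eMZB_WT, and to 1857 to 2147 and 1169 to 1212 in the knockout groups, so this sum was lower in eMZB too. Transitional markers summed to 413 to 516 scaled FPKM in TrB_WT and 135 to 141 in eMZB_WT, against 114 to 127 and 290 to 295 for marginal zone markers. These sums are not independent of the sort. The transitional set holds Cd93, and the marginal zone set holds Cr2 (CD21) and Cd1d1 (CD1d). Cr2 was at 8.77 in TrB_WT and 65.5 in eMZB_WT, and Cd1d1 at 22.3 and 22.8.

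Between the cell types, 7 of the 10 genes were called in wild type, and the same 7 were called in the same direction in knockout. The group means of the genotypes came from different libraries. The scaling and the fit used all libraries together, so the genotypes shared an estimate of the spread and their calls are not independent. In fits of the compared groups alone, which do not share that estimate, 7 of the 10 genes were called in each genotype too. Spib, Bach2, Pax5, Ebf1 and Foxp1 were lower in eMZB than in TrB. Irf8 and Zbtb32 were higher. Pou2af1, Foxo1 and Ikzf3 were not called in either genotype. Of all genes, 27.4% were called in wild type (14.6% higher, 12.7% lower) and 27.4% in knockout (14.2% higher, 13.2% lower), and 18.8% were called in the same direction in both. The median change of the 10 genes was -0.46 in wild type and -0.47 in knockout, against -0.0016 and -0.0085 over all genes. Libraries of the cell types did not overlap for 7 of the 10 genes in wild type and 8 in knockout, against 45.1% and 43.9% of all genes. With LSD1 loss, 0 of the 10 genes were called in TrB, where 0.498% of all genes were, and 2 (Ebf1 and Bach2) had an unadjusted p under 0.05. In eMZB, 1 was called, Zbtb32, where 0.406% of all genes were. Knockout and wild-type libraries did not overlap for 2 of the 10 genes in TrB (Ebf1 and Zbtb32) and for 4 in eMZB (Zbtb32, Spib, Pou2af1 and Ikzf3), against 10.5% and 18.4% of all genes.

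**Figure D1:**
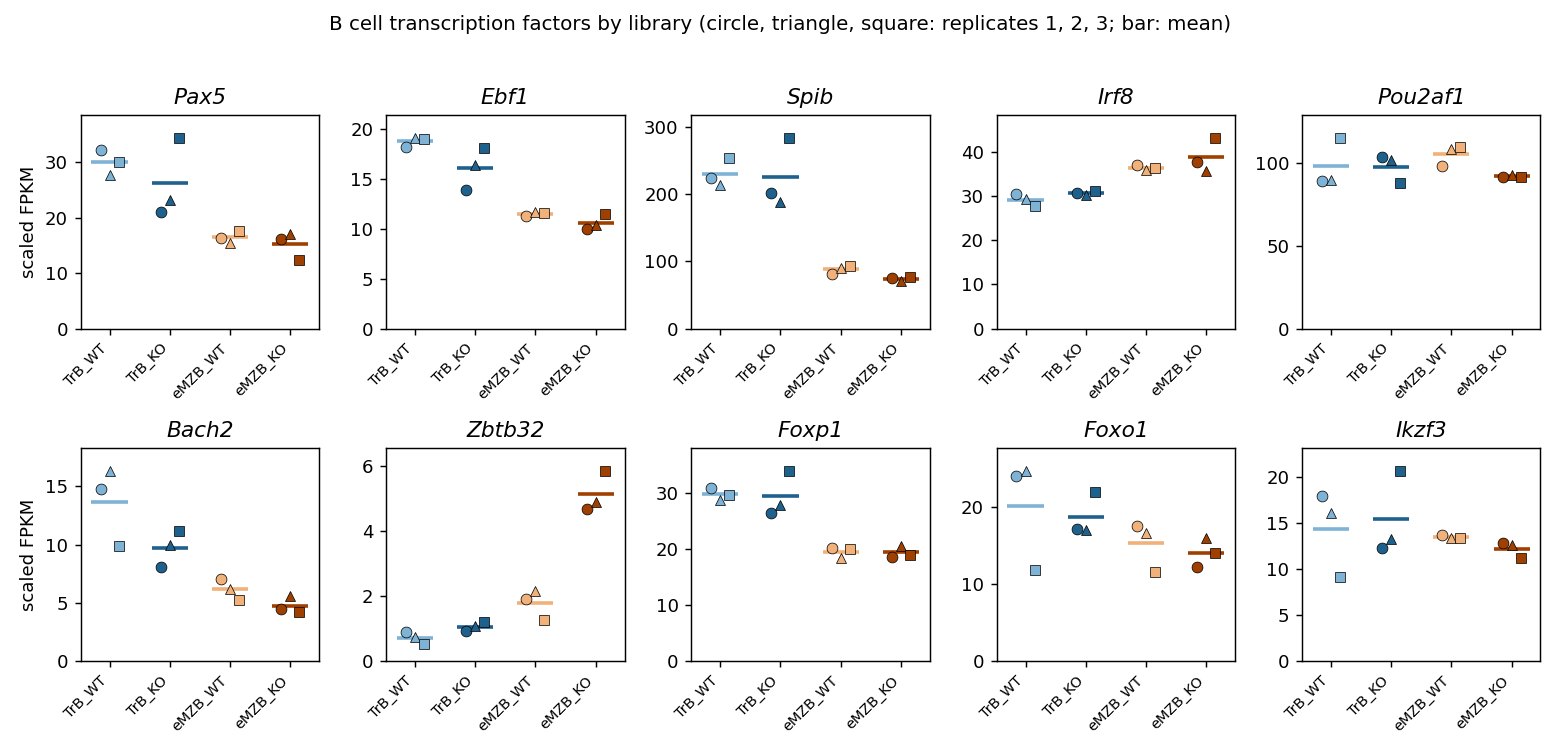
Scaled FPKM (y axis, linear, from 0) of the 10 genes in the 12 libraries, by group on the x axis; points are libraries and bars are group means. Spib, Pax5, Ebf1, Bach2 and Foxp1 lie lower in all 6 eMZB libraries than in all 6 TrB libraries, Irf8 lies higher, and Zbtb32 stands highest in the 3 eMZB_KO libraries, at 4.67 to 5.86.

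The direction of these changes is relative to the bulk of the genes. In the deposited FPKM the median gene was 0.67 higher (log2) in eMZB_WT than in TrB_WT, 0.23 higher in eMZB_KO than in TrB_KO, 0.52 higher in TrB_KO than in TrB_WT and 0.06 higher in eMZB_KO than in eMZB_WT. Without scaling, Zbtb32 alone of the 10 genes was called between the cell types, in both genotypes, and none was called with LSD1 loss, where 0.193% of all genes were called in TrB and 0.152% in eMZB, nor for the difference between the LSD1 effects (0.152%). The unscaled percentages between the cell types were 19.3% in wild type and 4.67% in knockout. In these bulk samples, fewer cells of a type and less RNA per cell cannot be told apart.

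Pax5 and Ebf1, the factors of B lineage commitment, were both lower in eMZB. Pax5 (chr4:44524748-44710694, minus strand, GRCm38) was at 32.2, 27.6 and 30.0 scaled FPKM in TrB_WT and 16.3, 15.5 and 17.6 in eMZB_WT. It was at 21.0, 23.2 and 34.3 in TrB_KO and 16.2, 17.1 and 12.4 in eMZB_KO. Every eMZB library lay below every TrB library of its genotype, and the third TrB_KO library was the highest of all 12. The wild-type fall was 1.82-fold (log2 change -0.82, SE 0.16, adjusted p = 0.00256) and the knockout fall 1.72-fold (-0.72, SE 0.16, adjusted p = 0.00541). On unscaled FPKM the wild-type change was 0.01, which is 0.66 below the 0.67 of the median gene. The gene length behind the deposited Pax5 values, recovered from the values themselves, was 1208 bases against 8853 bases for all annotated Pax5 exons together, so most annotated exon sequence did not enter its level.

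Ebf1 (chr11:44618100-45008096, plus strand) was at 18.1, 19.1 and 19.0 scaled FPKM in TrB_WT and at 11.3, 11.7 and 11.5 in eMZB_WT. In knockout it was at 13.8, 16.3 and 18.1 in TrB and at 9.96, 10.4 and 11.4 in eMZB. The wild-type libraries of each cell type lay within 1 scaled FPKM of each other, and neither genotype showed overlap between cell types. Ebf1 fell 1.63-fold in wild type (-0.66, SE 0.10, adjusted p = 0.000294) and 1.52-fold in knockout (-0.55, SE 0.10, adjusted p = 0.00111). Its unscaled wild-type change was 0.15, or 0.52 below the median gene. One of the 2 Ebf1 promoter windows in the RefSeq promoter table (GRCm38.p6) held the interferon-type motif (GAAA, any 2 bases, GAAA) on the minus strand. The other Ebf1 window did not hold it. Nor did the windows of Spib, Pax5, Bach2 and Foxp1, which also moved opposite to Irf8. An action of Irf8 on Ebf1 was not tested. Capitals mark the match.
Ebf1, chr11:44617850-44618149, plus strand: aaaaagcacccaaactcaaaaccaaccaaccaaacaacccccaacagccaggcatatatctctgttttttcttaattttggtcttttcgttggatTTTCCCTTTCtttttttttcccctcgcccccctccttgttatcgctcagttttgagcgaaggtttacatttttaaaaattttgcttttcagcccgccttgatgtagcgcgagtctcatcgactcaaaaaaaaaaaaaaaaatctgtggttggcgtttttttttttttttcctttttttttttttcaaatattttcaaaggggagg
This motif stood in 1 of the 14 windows of the 9 genes with an entry and in 3.44% of all 32851 promoter windows of the table; the match is a description of the letters and not a bound site.

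Of 22 genes that Pax5 or Ebf1 activate in B cells, 14 fell and 5 rose between the wild-type cell types, and 15 fell and 1 rose between the knockout ones. The shares of all genes, for this list and those below, were 12.7% lower and 14.6% higher in wild type and 13.2% and 14.2% in knockout. Their median change was -0.52 in wild type and -0.67 in knockout, against -0.0016 and -0.0085 over all genes. Unscaled, their medians were 0.34 and -0.44, against 0.67 and 0.23 for the median gene. Vpreb3, which encodes an invariant chain of the surrogate light chain family, went from 251 to 65.8 scaled FPKM in wild type (-1.91, SE 0.10, adjusted p = 1.77e-07). Cd24a, a surface glycoprotein of immature B cells, fell 2.86-fold (adjusted p = 7e-07), and Cplx2, a complexin, fell from 3.48 to 0.123 (adjusted p = 4.75e-07). Cr2, which encodes the CD21 receptor used to sort the eMZB, went the other way, from 8.77 to 65.5 (2.77, SE 0.11, adjusted p = 2.16e-08). With LSD1 loss, Cr2 was at 0.55 in TrB (SE 0.11) and only just passed (adjusted p = 0.0469), and Cd55, a complement regulator, fell 1.87-fold in eMZB (-0.83, SE 0.13, adjusted p = 0.0116). The Cr2 call was lost without any 1 library other than TrB_KO replicate 2 or TrB_WT replicate 3 (adjusted p = 0.0745 to 0.178), and with both other pseudocounts (0.054 and 0.0711), upper-quartile scaling (0.0697), no trend (0.0893), voom (0.0913), deposited FPKM (0.352) and the TrB groups alone (0.623). The Cd55 call was lost without eMZB_KO replicate 1 or 3 or eMZB_WT replicate 1 or 3 (0.0537 to 0.0799). It was also lost without both wild-type libraries of low Kdm1a (0.0515) and on deposited FPKM (-0.78, adjusted p = 0.99998). In each of the 2 LSD1 comparisons, 21 of the 22 genes were not called.

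Of 10 genes known to be repressed by Pax5, 5 could be tested. Xbp1, a factor of plasma cell secretion, was the 1 that rose between the wild-type cell types (1.55-fold, adjusted p = 0.00604, and 0.0596 without both wild-type libraries of low Kdm1a). Flt3, a cytokine receptor of progenitors and dendritic cells, was at 0.824 scaled FPKM in eMZB_WT and 5.15 in eMZB_KO, a 6.25-fold rise (1.76, SE 0.13, adjusted p = 4.1e-05). It did not pass in TrB (-0.31, adjusted p = 0.45), and the difference between these LSD1 effects was called (2.06, SE 0.19, adjusted p = 0.000908). Flt3 was the 1 gene, 0.0102% of those tested, called for that difference. The others between the knockout cell types were Emb, which rose (1.28, adjusted p = 0.00493), and Jchain, which fell (-3.27, adjusted p = 0.0175); the Jchain call was lost without TrB_KO replicate 2 or 3 or eMZB_KO replicate 1 (0.0501 to 0.0794).

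Spib had the largest fall of the 10 genes. It lies at chr7:44525995-44532087 on the minus strand. Its levels were 224, 213 and 253 scaled FPKM in TrB_WT and 81.2, 90.4 and 92.5 in eMZB_WT. They were 202, 189 and 284 in TrB_KO and 75.7, 70.2 and 77.2 in eMZB_KO. The lowest TrB library of either genotype was above 2 times the highest eMZB library. Spib fell 2.61-fold in wild type (-1.37, SE 0.13, adjusted p = 1e-05) and 3.02-fold in knockout (-1.56, SE 0.13, adjusted p = 3.97e-06). Unscaled, it fell by 0.51 in wild type and by 1.25 in knockout, short of a call (adjusted p = 0.29 and 0.0543). The Spib promoter window is shown because the gene fell most.
Spib, chr7:44532022-44532321, minus strand: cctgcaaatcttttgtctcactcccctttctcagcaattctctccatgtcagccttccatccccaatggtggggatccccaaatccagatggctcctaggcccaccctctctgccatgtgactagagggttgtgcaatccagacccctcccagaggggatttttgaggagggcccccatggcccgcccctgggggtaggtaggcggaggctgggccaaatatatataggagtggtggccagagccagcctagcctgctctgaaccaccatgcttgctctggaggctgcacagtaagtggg
None of the 8 motifs searched occurs in these letters.

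Irf8 moved opposite to Spib, by a smaller amount. Irf8 (chr8:120736358-120756694, plus strand) was at 30.4, 29.5 and 27.7 scaled FPKM in TrB_WT and 37.0, 36.0 and 36.4 in eMZB_WT. It was at 30.7, 30.2 and 31.1 in TrB_KO and 37.7, 35.7 and 43.2 in eMZB_KO. All 6 eMZB libraries lay above all 6 TrB libraries. Irf8 rose 1.25-fold in wild type (0.31, SE 0.08, adjusted p = 0.0115) and 1.27-fold in knockout (0.33, SE 0.08, adjusted p = 0.00892). The wild-type call was lost when the libraries labelled TrB_WT replicate 3 and eMZB_WT replicate 3 were both left out (adjusted p = 0.0676). One of its 2 promoter windows held the Ikaros family motif TGGGAA, in capitals, just after the start of the transcript.
Irf8, chr8:120736108-120736407, plus strand: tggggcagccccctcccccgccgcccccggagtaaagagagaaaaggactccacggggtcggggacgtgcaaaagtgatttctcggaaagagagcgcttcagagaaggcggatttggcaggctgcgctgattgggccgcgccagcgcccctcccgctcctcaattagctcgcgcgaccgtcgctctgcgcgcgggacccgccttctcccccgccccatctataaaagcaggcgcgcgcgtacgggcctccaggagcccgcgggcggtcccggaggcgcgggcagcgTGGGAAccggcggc
The second Irf8 window held the same motif, which stood in 4 of the 14 windows and in 25.6% of all promoter windows.

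Ratios within a library do not depend on scaling. The ratio of Spib to Pou2af1 was 2.52, 2.37 and 2.20 in TrB_WT and 0.826, 0.834 and 0.842 in eMZB_WT, with means of 2.36 ± 0.16 and 0.834 ± 0.008. In knockout it was 2.34 ± 0.76 in TrB and 0.809 ± 0.046 in eMZB. Every TrB library thus held more Spib than Pou2af1 per length of gene, and every eMZB library held less. Against Spi1 (PU.1), its closest relative in B cells, Spib stood at 8.68 ± 2.13 in TrB_WT and 4.21 ± 0.42 in eMZB_WT, and at 8.50 ± 2.20 and 3.70 ± 0.36 in the knockout groups. Spi1 itself fell 1.29-fold between the wild-type cell types (-0.35, SE 0.12, adjusted p = 0.0428; 0.48 unscaled, below the median gene), a call lost without any 1 library of eMZB_WT, of replicates 1 and 2 of TrB_WT or of replicates 1 and 2 of eMZB_KO (adjusted p = 0.0508 to 0.139). The Spi1 call was also lost with the replicate block (0.0592), voom (0.0595), no trend (0.0608) and the wild-type groups alone (0.0557). The ratio of Irf8 to Spib rose from 0.128 ± 0.016 to 0.416 ± 0.034 in wild type and from 0.141 ± 0.027 to 0.522 ± 0.033 in knockout, with no overlap between the cell types. The ratio of Irf8 to Irf4, a relative whose high dose goes with plasma cells, overlapped between the groups, at 2.89 ± 0.88 in TrB_WT and 3.07 ± 0.40 in eMZB_WT.

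**Figure D2:**
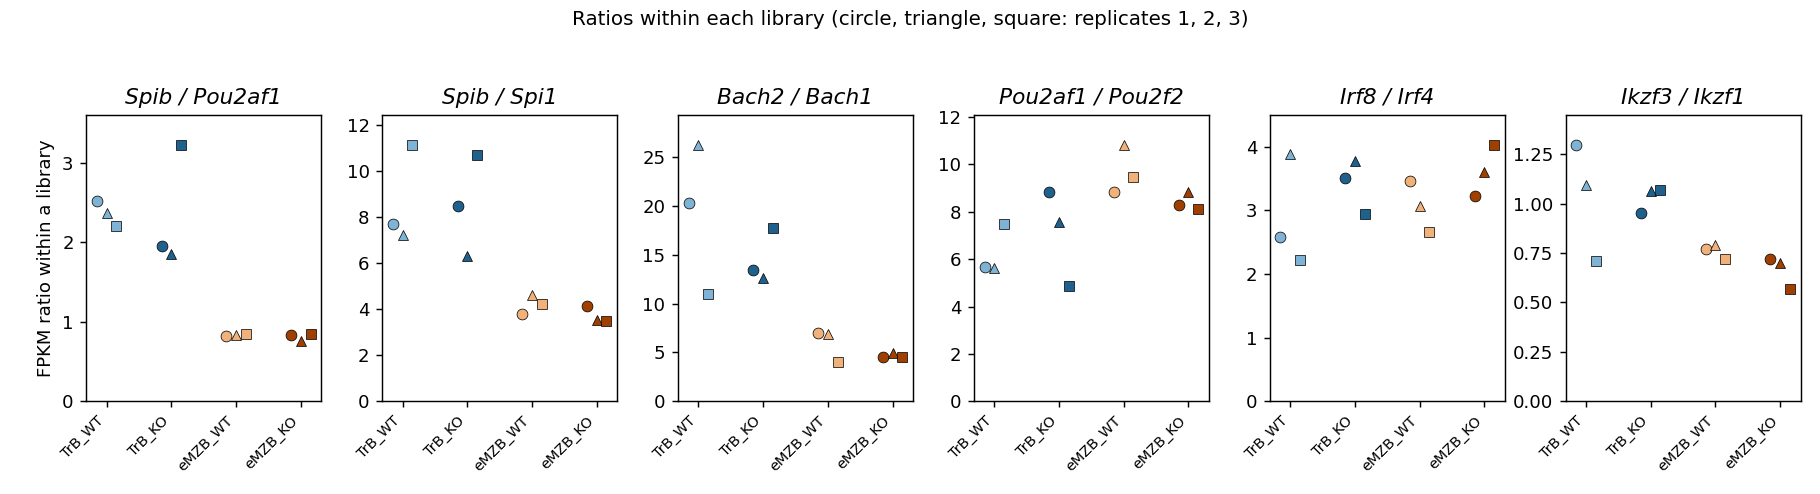
Ratio of the FPKM of 2 genes within each library (y axis, linear, from 0) in the 4 groups (x axis), for 6 pairs of factors; points are libraries. Spib against Pou2af1 lies above 1 in the 6 TrB libraries and below 1 in the 6 eMZB libraries, and Bach2 against Bach1 falls without overlap in both genotypes.

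Of 13 genes that Irf8, Spib or Spi1 activate in B cells, 4 rose and 3 fell in wild-type eMZB, with a median of 0.14, and 3 rose and 3 fell in knockout, with a median of 0.03. Fcrl5, an Fc receptor-like molecule of marginal zone cells, rose 9.49-fold in wild type (adjusted p = 1.77e-07). Cybb, the catalytic NADPH oxidase subunit, rose 2.14-fold (adjusted p = 4.84e-06) and Ctss, the protease cathepsin S, 1.84-fold (adjusted p = 5.35e-06). Cd40, the receptor for T cell help, fell 1.57-fold (adjusted p = 0.000461), a fall that was a rise of 0.21 on the unscaled log2 scale. None of the 13 was called with LSD1 loss in either cell type.

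Pou2af1 (chr9:51213690-51240079, plus strand) was near the same level in all 4 groups. It was at 89.0, 90.0 and 115 scaled FPKM in TrB_WT and 103, 102 and 88.1 in TrB_KO. In eMZB it was at 98.3, 108 and 110 in wild type and 91.5, 92.8 and 91.6 in knockout, within the TrB range. Its log2 change between the cell types was 0.11 in wild type (95% interval -0.11 to 0.34) and -0.08 in knockout (-0.31 to 0.14). In eMZB all 3 knockout libraries lay below all 3 wild-type libraries, yet the change of -0.19 (SE 0.10) was not called (adjusted p = 0.9999). The octamer factor Pou2f2, a DNA-binding partner of Pou2af1, fell 1.44-fold between the wild-type cell types (-0.49, SE 0.13, adjusted p = 0.0125, and 0.0521 without eMZB_WT replicate 2; 0.32 unscaled, below the median gene). The ratio of Pou2af1 to Pou2f2 was 6.26 ± 1.05 in TrB_WT and 9.7 ± 1.0 in eMZB_WT.

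Of the 2 repressors, Bach2 fell and Zbtb32 rose in eMZB. Bach2 (chr4:32238413-32586109, plus strand) was at 14.8, 16.3 and 9.83 scaled FPKM in TrB_WT and 7.05, 6.19 and 5.22 in eMZB_WT. It was at 8.05, 9.98 and 11.2 in TrB_KO and 4.44, 5.55 and 4.25 in eMZB_KO. The library labelled TrB_WT replicate 3 lay within the TrB_KO range, and no eMZB library reached the lowest TrB library. Bach2 fell 2.22-fold in wild type (-1.01, SE 0.18, adjusted p = 0.00113) and 2.05-fold in knockout (-0.90, SE 0.18, adjusted p = 0.00251). Its ratio to Bach1, a widely expressed relative, went from 19.1 ± 7.7 to 5.95 ± 1.70 in wild type and from 14.6 ± 2.7 to 4.68 ± 0.20 in knockout. With LSD1 loss the Bach2 change in TrB was -0.43 (SE 0.18), with an unadjusted p of 0.0306 and an adjusted p of 0.43. In eMZB it was -0.31 (SE 0.18, adjusted p = 0.9999). Antisense transcripts cannot be told apart without strand, and 537 bases of Bach2 exons are shared with the annotated antisense gene Bach2os.

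Of 9 genes that Bach factors repress, 6 could be tested: 4 rose and 1 fell in wild-type eMZB, and 3 rose and none fell in knockout. Ftl1 and Fth1, the ferritin chains, rose 1.65-fold and 1.48-fold in wild type (adjusted p = 3.6e-05 and 0.000814), though both have near-identical pseudogenes that can share reads. Prdm1, which encodes the plasma cell regulator Blimp-1, rose from 0.627 to 1.57 scaled FPKM in wild type (0.66, SE 0.13, adjusted p = 0.00319) and was at 0.738 and 0.89 in the knockout groups (0.12, adjusted p = 0.546). Hmox1, the heme oxygenase, rose from 0.321 to 2.3 in wild type (adjusted p = 0.00839, and 0.0991 without both wild-type libraries of low Kdm1a). Blvrb, a biliverdin reductase, fell 1.59-fold (adjusted p = 0.00409), or rose by 0.18 on the unscaled log2 scale. None of the 6 was called with LSD1 loss or for the difference between the LSD1 effects. Prdm1 was at 1.57 in eMZB_WT and 0.89 in eMZB_KO (-0.44, SE 0.13, adjusted p = 0.433).

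Zbtb32 was the 1 gene of the 10 called with LSD1 loss. It lies at chr7:30589680-30602819 on the minus strand. Its levels were 0.912, 0.760 and 0.521 scaled FPKM in TrB_WT and 0.919, 1.08 and 1.21 in TrB_KO. In eMZB they were 1.91, 2.17 and 1.26 for wild type and 4.67, 4.90 and 5.86 for knockout. The 3 eMZB_KO libraries were above 2 times every other library, and the TrB groups were near the lower end of the table. Few reads lie behind these values. In TrB there were 7 to 14 per wild-type and 13 to 69 per knockout library, and in eMZB 30 to 60 and 157 to 231.

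In eMZB, loss of LSD1 went with a 2.89-fold rise of the mean Zbtb32 level. The log2 change of values plus 1 was 1.15 (SE 0.15, adjusted p = 0.00477). Unscaled, the log2 change was 1.27 with adjusted p = 0.088. In TrB the change was 0.26 (SE 0.15, adjusted p = 0.579). The difference between the LSD1 effects of the cell types was 0.89 (SE 0.22, unadjusted p = 0.00133) and did not pass over all genes (adjusted p = 0.429), so a larger LSD1 effect on Zbtb32 in eMZB was not shown. Between the cell types Zbtb32 rose 2.44-fold in wild type (0.68, SE 0.15, adjusted p = 0.00602) and 4.81-fold in knockout (1.57, SE 0.15, adjusted p = 1.21e-05). The wild-type rise was not called by voom on recovered reads (adjusted p = 0.0714). The summed level of macrophage and monocyte markers was higher with LSD1 loss too, and most of the sum was Ly6c2. The 4 of 8 markers that were measured summed to 13.0 to 23.0 scaled FPKM in eMZB_WT and 50.6 to 58.4 in eMZB_KO. In TrB the sum was 12.4 to 14.2 in wild type and 51.1 to 64.6 in knockout. Both cell types had been sorted as F4/80- and CD11b-. In eMZB, Adgre1, which encodes F4/80, was at 0.521 to 0.882 in wild type and 0.520 to 0.951 in knockout. Itgam, which encodes CD11b, was at 0.180 to 0.376 and 0.991 to 1.25, and Cd68 had means of 2.03 and 2.75. In TrB the means of Adgre1 (2.27 and 1.31) and Cd68 (2.62 and 1.84) were lower in knockout. Those of Itgam (0.890 and 1.49) and Ly6c2 (7.80 and 51.7) were higher. Csf1r, Lyz2, Cd14 and Fcgr1, the other 4 markers, were not analysed here. The part of these markers in the Zbtb32 rise was not tested.

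For the other 9 genes no change with LSD1 loss was called, and the log2 changes carry intervals of differing width. In TrB, Pax5 was at -0.22 (95% interval -0.57 to 0.14), and Ebf1 at -0.22 (-0.42 to -0.0085), with an unadjusted p of 0.0426 and an adjusted p of 0.476. Spib was at -0.05 (-0.34 to 0.23), Irf8 at 0.07 (-0.10 to 0.24), and Foxo1 at -0.04 (-0.56 to 0.48). These TrB values rest in part on the third TrB_KO library, which was the highest of its group for all 5. In eMZB, Pax5 was at -0.12 (-0.47 to 0.23), Ebf1 at -0.11 (-0.32 to 0.10), Spib at -0.24 (-0.53 to 0.05) and Irf8 at 0.08 (-0.09 to 0.26). Foxo1 was at -0.10 (-0.62 to 0.43), and Ikzf3, at 0.11 (-0.36 to 0.58) in TrB and -0.13 (-0.60 to 0.34) in eMZB, had intervals nearly as wide. No interaction of these 9 genes passed, the lowest adjusted p being 0.853.

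Of 27 measured genes of the Zbtb family, which leaves out Zbtb8os and Zbtb11os1 as opposite-strand genes that share only the name, Zbtb32 was the 1 called with LSD1 loss in eMZB, and none was called in TrB. Between the wild-type cell types Zbtb32 was the 1 that rose, while Zbtb18, Zbtb4 and Zbtb22 fell, by 0.71, 0.46 and 0.58 on the log2 scale; unscaled, Zbtb4 and Zbtb22 stood at 0.07 and 0.14, and their calls were lost without TrB_WT replicate 1, the Zbtb4 call also without eMZB_WT replicate 1 and the Zbtb22 call also without eMZB_WT replicate 2 (adjusted p = 0.0533 to 0.0601). Zbtb32 can repress, with Blimp-1, the gene for Ciita, the activator of MHC class II genes. Of the 5 measured genes of that axis, 4 rose in wild-type eMZB and 2 in knockout eMZB, where 0 fell. H2-Aa was at 277 scaled FPKM in TrB_WT, 538 in eMZB_WT and 418 in eMZB_KO, and H2-Eb1 at 145, 273 and 232. Neither was called between eMZB_KO and eMZB_WT (-0.36, adjusted p = 0.242, and -0.23, adjusted p = 0.378), and the median of the 5 there was -0.34.

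The 2 Zbtb32 promoter windows, for alternative starts, are shown because this gene responded to LSD1 loss.
Zbtb32, chr7:30598860-30599159, minus strand: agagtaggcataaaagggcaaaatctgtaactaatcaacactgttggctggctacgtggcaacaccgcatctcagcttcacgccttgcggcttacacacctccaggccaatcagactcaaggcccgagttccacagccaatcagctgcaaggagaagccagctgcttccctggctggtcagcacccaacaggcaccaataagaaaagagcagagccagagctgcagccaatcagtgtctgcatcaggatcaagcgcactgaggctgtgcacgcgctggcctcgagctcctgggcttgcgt
Zbtb32, chr7:30592893-30593192, minus strand: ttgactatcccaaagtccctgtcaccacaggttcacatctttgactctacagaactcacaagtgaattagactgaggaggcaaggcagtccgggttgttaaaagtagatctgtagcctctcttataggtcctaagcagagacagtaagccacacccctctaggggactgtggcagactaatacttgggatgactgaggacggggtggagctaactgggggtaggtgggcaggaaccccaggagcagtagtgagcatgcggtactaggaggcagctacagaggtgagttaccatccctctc
Neither holds any of the 8 motifs, which were, on both strands and with no overlap between matches in these 14 windows, GAGGAA (Spi1 and Spib), ATTTGCAT (octamer factors), GAAA, any 2 bases, GAAA (Irf factors), TCCC, any 2 bases, GGGA (Ebf1), TGTTTAC (Foxo and Foxp), the Bach element TGCTGAG followed by TCA, TGGGAA (Ikaros family) and CAGGTG (E proteins). Over the 14 windows, GAGGAA stood in 3 against 28.3% of all windows of the table, CAGGTG in 2 against 20.2%, and ATTTGCAT, TGTTTAC and the Bach element in 0 against 1.74%, 3.65% and 0.155%. The Ebf1 palindrome stood in 1, the window of Foxo1, against 0.904% of all. Ikzf3 had no entry.

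**Figure D3:**
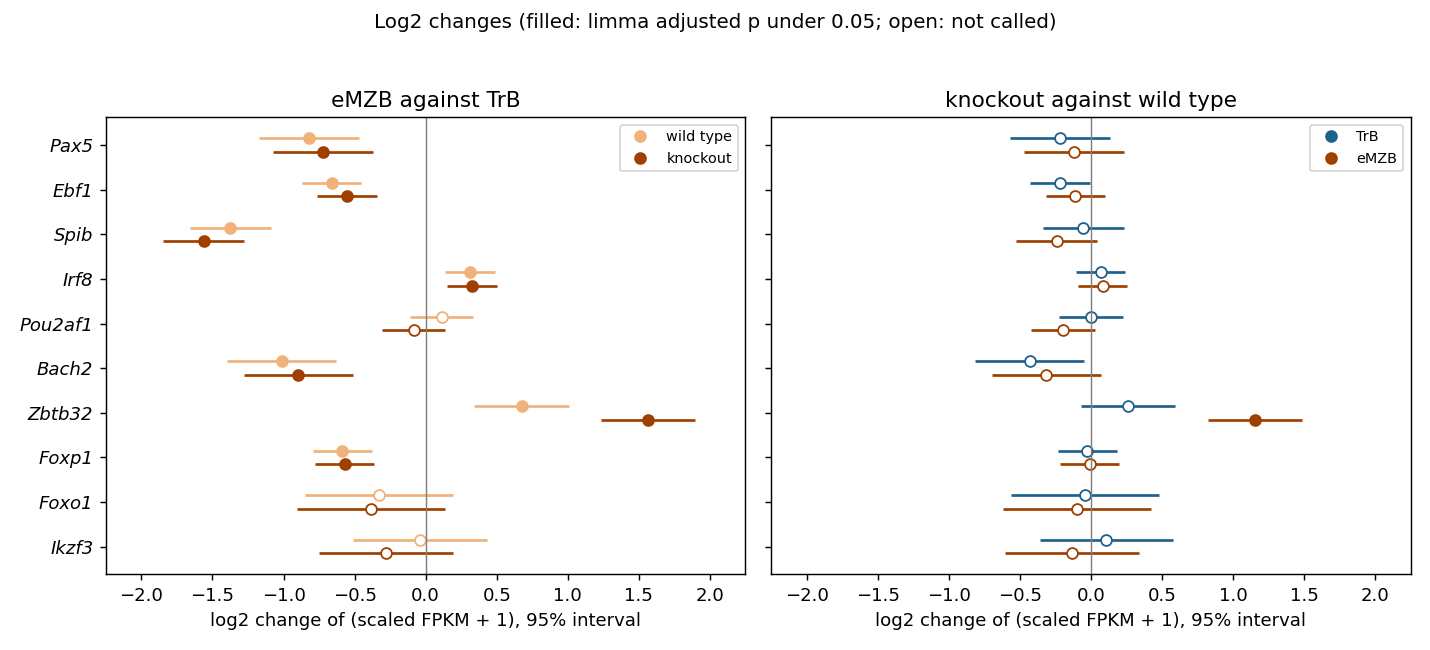
Log2 change of scaled FPKM plus 1 (x axis) of the 10 genes (y axis), eMZB against TrB on the left and knockout against wild type on the right; lines are 95% intervals of the limma fit and filled points were called. The 7 genes called on the left are the same in both genotypes, and Zbtb32 in eMZB, at 1.15, is the 1 filled point on the right.

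Among the factors of the resting B cell, Foxp1 fell and Foxo1 and Ikzf3 were not called. Foxp1 (chr6:98925342-99522746, minus strand) was at 30.9, 28.8 and 29.5 scaled FPKM in TrB_WT and 20.1, 18.3 and 20.1 in eMZB_WT. It was at 26.4, 27.8 and 33.9 in TrB_KO and 18.6, 20.6 and 19.0 in eMZB_KO. The cell types did not overlap, and the fall was 1.53-fold in wild type (-0.59, SE 0.10, adjusted p = 0.000698) and 1.52-fold in knockout (-0.57, SE 0.10, adjusted p = 0.000873). Unscaled, the wild-type value was 0.25, or 0.42 below the median gene. The Foxp1 change with LSD1 loss in eMZB was -0.01 with a 95% interval of -0.22 to 0.20.

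Foxo1 (chr3:52268337-52350109, plus strand) spread more between replicates than the other 9 genes did in TrB_WT, with an SD of 36.0% of its mean. It was at 24.0, 24.7 and 11.8 scaled FPKM in TrB_WT and 17.6, 16.6 and 11.6 in eMZB_WT. In knockout it was at 17.2, 17.0 and 21.9 in TrB and 12.2, 16.0 and 14.1 in eMZB. The 2 libraries labelled wild type in which Kdm1a was low held the lowest Foxo1 of their groups. With them Foxo1 was not called between the cell types (-0.33, SE 0.24, adjusted p = 0.332 in wild type; -0.38, SE 0.24, adjusted p = 0.273 in knockout). Without both it was called in wild type (-0.48, adjusted p = 0.0368) and in knockout (-0.38, adjusted p = 0.0298). The knockout libraries and their log2 change were the same in both fits, which share an estimate of the spread with the wild-type libraries. The knockout call is thus no added evidence from the knockout libraries. Without TrB_WT replicate 3 alone Foxo1 was called in wild type (-0.66, adjusted p = 0.0148).

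Ikzf3 (chr11:98464610-98546031) was at 17.9, 16.1 and 9.09 scaled FPKM in TrB_WT and at 13.7, 13.3 and 13.3 in eMZB_WT. In knockout it was at 12.3, 13.3 and 20.7 in TrB and at 12.8, 12.6 and 11.2 in eMZB. The TrB libraries spread on both sides of the eMZB_WT ones, so the change of -0.04 in wild type had a 95% interval of -0.51 to 0.43. The library labelled TrB_WT replicate 3 was the lowest of all 12 for Ikzf3 and the lowest of its group for Irf8, Bach2, Foxo1 and Zbtb32. The ratio of Ikzf3 to Ikzf1 (Ikaros) went from 1.03 ± 0.30 in TrB to 0.762 ± 0.036 in eMZB in wild type, with overlap, and from 1.03 ± 0.07 to 0.662 ± 0.083 in knockout, with none.

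Of 16 genes that Foxo1 activates in B cells, 14 could be tested. In wild-type eMZB 3 rose and 3 fell, against 14.6% and 12.7% of all genes. In knockout 2 rose and 5 fell, against 14.2% and 13.2%. Rag1, of the V(D)J recombinase, went from 1.84 to 0.126 between the wild-type cell types (-1.33, SE 0.17, adjusted p = 0.000105). Klf2, a factor of quiescence, fell 3.12-fold (-1.48, SE 0.33, adjusted p = 0.00517), and Bcl2l11, the proapoptotic Bim, rose 1.99-fold (adjusted p = 0.0047).

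Among 48 other measured factors of the B lineage, 9 rose and 17 fell between the wild-type cell types, against 14.6% and 12.7% of all genes. Between the knockout ones 9 rose and 17 fell too, but not all were the same genes. Prdm1 was among those called in wild type only, and Etv6 among those called in knockout only (0.78, adjusted p = 0.000433, against 0.18, adjusted p = 0.295, in wild type). None of the 48 was called with LSD1 loss in either cell type. For the difference between the LSD1 effects none was called either, so a genotype difference in these cell type changes was not shown. Mef2b, a factor of germinal centre B cells, rose from 1.22 to 7.06 scaled FPKM in wild type (1.88, SE 0.16, adjusted p = 3.27e-06), and Nfatc1, a calcium-regulated factor, rose 1.89-fold (adjusted p = 6.23e-05). E2f2, a cell cycle factor, fell 3.03-fold (-1.40, SE 0.12, adjusted p = 3.93e-06). Id3, an inhibitor of E proteins, fell 1.79-fold (-0.82, SE 0.10, adjusted p = 5.39e-05; 0.03 unscaled). In this order Spib stood beside Klf2 and E2f2 at the low end, and Irf8 and Zbtb32 in the upper part.

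**Figure D4:**
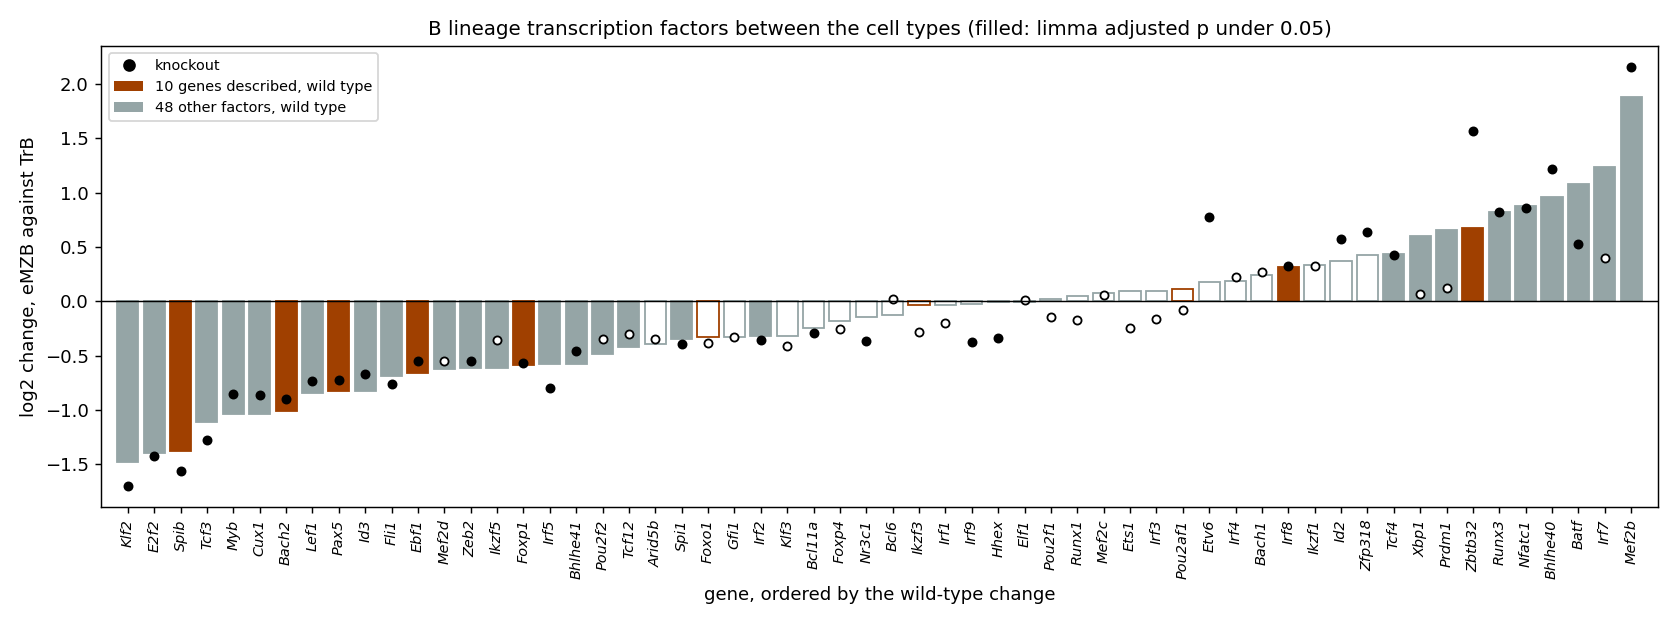
Log2 change between eMZB and TrB (y axis) of the 10 genes and 48 other B lineage factors, ordered by the wild-type value (x axis); bars are wild type, points are knockout, and filled marks were called. Klf2, E2f2 and Spib have the lowest wild-type values and Mef2b the highest, at 1.88.

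The order of levels per length of gene also differed between the cell types. Spib (230 ± 21 scaled FPKM) and Pou2af1 (98.1 ± 14.9) led in TrB_WT without overlap. Pax5, Foxp1 and Irf8 followed at 29.9 ± 2.3, 29.8 ± 1.1 and 29.2 ± 1.4, and did not differ beyond their spread. Foxo1 (20.1 ± 7.3) overlapped Ebf1 (18.7 ± 0.5), Ikzf3 (14.4 ± 4.7) overlapped Bach2 (13.6 ± 3.4), and Zbtb32 (0.731 ± 0.198) was lowest. In eMZB_WT the lead passed to Pou2af1 (105 ± 6) over Spib (88.0 ± 6.0), and Irf8 (36.5 ± 0.5) stood apart from Foxp1 (19.5 ± 1.0) and Pax5 (16.5 ± 1.1). Zbtb32 was last in 3 groups, and in eMZB_KO its 5.14 ± 0.63 overlapped the 4.75 ± 0.70 of Bach2. Its place among all 9842 genes went from the 2.05 percentile in TrB_WT to the 20.5 percentile in eMZB_WT and the 56.4 percentile in eMZB_KO, while Spib ran from the 98.2 to the 99.8 percentile.

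Over the 12 libraries, the genes with the pattern most like each factor were sought among 4988 genes by Pearson correlation of log2 values; the libraries form 2 cell types, so these r values describe mainly that contrast. Closest were Rubcn to Spib (r = 0.994), Septin11 to Ebf1 (0.986), Pde2a to Foxp1 (0.981), Rab24 to Foxo1 (0.981), Mtdh to Irf8 (0.971), Elk4 to Bach2 (0.967), Map4k1 to Pax5 (0.964), Cdh17 to Zbtb32 (0.957), Apbb3 to Ikzf3 (0.949) and Selenof to Pou2af1 (0.880). Map4k1 was also among the 3 closest to Foxp1 (0.978). Pax5 had r of 0.915 with Ebf1, 0.927 with Spib and -0.89 with Irf8.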

How the data were processed

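RNA of 12 libraries, 3 in each of 4 groups, was measured by sequencing. Per the labels' protocols, SMART-Seq v4 was used for cDNA and Nextera XT, a kit without strand marking, for libraries. STAR and the mm10 build are named in the submitters' processing notes. For the counting program, the annotation and the STAR version, the sources used here give nothing. The authors deposited FPKM for 9842 genes with Entrez IDs, of which 9833 matched a symbol in the RefSeq gene table; 0 value columns were left out.

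FPKM were divided by median-of-ratios factors (0.613 to 2.144). limma 3.58.1 (R 4.3.3; lmFit, eBayes with trend) was fitted to log2 of scaled FPKM plus 1 over all 12 libraries as 4 group means with 8 residual degrees of freedom, with Benjamini-Hochberg adjustment over all genes; it was tested on simulated data. Every gene reached the table's own minimum, so no filter on low values was applied. Whole reads were recovered from the FPKM for all 9842 genes within 0.02 reads, and served for depth (1.96 to 8.78 M reads in listed genes) and a voom fit; they bound counting error only. Differences between replicates exceeded counting noise 2.63 to 16.9 times, so none was a duplicate. Alternatives were other scalings, pseudocounts of 0.1 and 5, a 5 FPKM filter, voom, no trend, fits of the compared groups alone, a replicate block, leaving out libraries, and, added after seeing the data, the block in the knockout libraries alone.

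Replicate numbers are shared by the groups without a stated meaning. Deviations from group means correlated over 0.1 for every number between TrB_KO and eMZB_KO (0.161, 0.106 and 0.292). In no other pair of groups did every number pass 0.1, but single numbers did, such as replicate 3 of TrB_WT and eMZB_WT (0.273). Libraries of unlike number were not compared, so these values do not settle a pairing. The 10 genes and the 8 gene lists were chosen with earlier results of these data known. From each list, up to 4 genes with the smallest adjusted p in an LSD1 comparison and 4 in the wild-type cell type comparison could be named, and the 3 most alike genes per factor among those of at least 5 scaled FPKM in a group. A gene of these lists is not reported here. Positions and promoter windows (250 bases before to 50 after a start) are from RefSeq, GRCm38.p6. Python 3.11.15, numpy 2.4.6, pandas 2.3.3 and matplotlib 3.10.9 served for the rest.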

Additional observations from a re-analysis of the deposited data

How the results depend on the processing

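All 15 calls of the 10 genes on scaled values (7 between the wild-type cell types, 7 between the knockout ones and Zbtb32 with LSD1 loss in eMZB) held in each of the 12 fits that left out 1 library, with both pseudocounts, upper-quartile scaling, no trend and fits of the compared groups alone. The 12 calls other than those of Zbtb32 also held with the 5 FPKM filter, which Zbtb32 passed only through the eMZB_KO libraries. Voom lost Zbtb32 between the wild-type cell types. Leaving out both wild-type libraries of low Kdm1a lost Irf8 there and added Foxo1 in both genotypes, in knockout at an unchanged log2 change. With replicate block in the fit, 7, 7 and 1 genes were called as before, and 39, 27, 2735, 2674 and 1 genes overall in TrB, in eMZB, between the wild-type and knockout cell types and for the difference; with the block in the knockout libraries alone, 7 of the 10 and 2452 of all genes were called. It changed no call of the 10 genes and, of the other genes named, ended the wild-type Spi1 call (adjusted p = 0.0592) and, in the knockout libraries alone, the knockout Rag1 call (0.0728). On deposited FPKM, calls fell to 19 in TrB, 15 in eMZB and 460 between the knockout cell types, rose to 15 for the difference, and for the 10 genes were 1, 1 and 0. Changes that reversed there were, in TrB, Bach2 (0.17), Ebf1 (0.39), Foxo1 (0.56), Foxp1 (0.59), Pax5 (0.40) and Spib (0.58); in eMZB, Foxp1 (0.060); between the knockout cell types, Pou2af1 (0.22); and between the wild-type ones, Blvrb (0.18), Cd40 (0.21), Ebf1 (0.15), Foxo1 (0.48), Foxp1 (0.25), Id3 (0.030), Ikzf3 (0.76), Pax5 (0.01), Pou2f2 (0.32), Spi1 (0.48), Zbtb22 (0.14) and Zbtb4 (0.068). By construction these values carry the shift of the median gene. Near 0 and never called, other values reversed in TrB with voom (Foxp1 0.0077, Pou2af1 -0.013, Spib 0.0022), upper-quartile scaling (Pou2af1 -0.058) and without both wild-type libraries of low Kdm1a (Ikzf3 -0.17, Spib 0.019; Foxp1 in eMZB 0.012); the cause was not tested. Leaving out 1 library gave ranges through 0 in TrB for Foxo1 (-0.37 to 0.13), Foxp1 (-0.13 to 0.045), Ikzf3 (-0.17 to 0.29), Pou2af1 (-0.062 to 0.12) and Spib (-0.23 to 0.062), in eMZB for Foxo1 (-0.27 to 0.011), Foxp1 (-0.051 to 0.019) and Pax5 (-0.20 to 0.016), and between the wild-type cell types for Ikzf3 (-0.32 to 0.14). Over all genes, 49 calls in TrB became 26 to 54 when 1 library was left out, 9 in a fit of the TrB groups alone and 19 with voom; 40 in eMZB became 16 to 52, 65 in a fit of the eMZB groups alone and 23 without both libraries of low Kdm1a; and 1 for the difference became 1 to 5, 2 without those libraries, 0 with the 5 FPKM filter and 6 with a pseudocount of 5. Zbtb32 rests on few reads, and 3 libraries per group leave intervals of up to 1 log2 unit for Foxo1 and Ikzf3.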
